A study of Homo sapiens with 12 samples.

Results

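The alpha and beta globin genes were followed across 4 groups of RNA immunoprecipitates from K562 cells. The 8 genes were HBE1, HBG1, HBG2, HBB and HBD of the beta-globin cluster on chromosome 11, and HBZ, HBA1 and HBA2 of the alpha-globin cluster on chromosome 16. They were picked by symbol, as every row of the deposited tables in which one of the listed gene names was a globin of this set. The 8 genes stood in 6 of 61782 rows. HBB, HBD, HBA1 and HBA2 had a row each. HBE1, HBG1 and HBG2 shared 1 row with OR51B5, AC015691.13 and AC104389.28, so that the row carried 6 names, and HBZ shared 1 row with HBM and HBZP1. In GENCODE 29 (GRCh38) each gene has 3 exons in its RefSeq-linked transcript, on the minus strand of chromosome 11 for HBE1 (chr11:5268352-5269945), HBG2 (chr11:5253190-5254811), HBG1 (chr11:5248079-5249859), HBD (chr11:5232838-5234648) and its neighbour HBB, and on the plus strand of chromosome 16 for HBZ (chr16:152687-154503), HBA2 (chr16:172876-173710) and HBA1 (chr16:176680-177522). The value of a joined row belongs to all its names together and was not divided between them.

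K562 is a human erythroleukemia cell line. The cells carried a lentiviral vector, pLV-miR-143 or the control vector pLV-control, and were kept under puromycin. According to the methods of the study they were K562-C/EBPα-ER cells, a line with an inducible C/EBPα, whereas the labels give K562 alone. RNA was recovered with an antibody against Argonaute 2 (AGO), the protein that carries miRNAs to their target mRNAs, or with unspecific immunoglobulin (IgG), which gave control_IgG, control_AGO, miR143_IgG and miR143_AGO with 3 of the 12 samples in each.

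The comparisons addressed which mRNAs were bound to AGO2, and which were bound more in cells with pLV-miR-143 than in control cells. The deposited value was the authors' average FPKM (fragments per kilobase of transcript, scaled by the fragments of the library) of each group. No value of a single sample was analysed here, so that no spread, test or p-value could be given, and a difference below is a ratio between averages with no replicate check. The row of MIR143 held 44780.8 FPKM with IgG and 118393 FPKM with AGO in miR-143 cells, and was listed at 0 in control cells. Rows above 0 numbered between 8393 in control_IgG and 12937 in miR143_AGO. Coding rows held 7.90% and 8.38% of the summed FPKM in the control and miR-143 IgG groups, and 42.0% and 37.2% in the control and miR-143 AGO groups. Library sizes were not given, but the lowest FPKM values reached in control_IgG lay 13.5 times above those in miR143_AGO once multiplied by transcript length, against 1.09 times in control_AGO and 1.64 times in miR143_IgG, so that low values were least resolved in control_IgG.

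Hemoglobin is a tetramer of alpha-like and beta-like chains, each with a heme. The genes of each cluster lie along the chromosome in the order in which they are used in development: zeta (HBZ) and epsilon (HBE1) in the embryo, alpha (HBA1 and HBA2) with gamma (HBG1 and HBG2) in the fetus, and alpha with beta (HBB) and a little delta (HBD) in the adult. K562 cells are known for embryonic and fetal globins and for a silent HBB. A miRNA guides AGO2 by its seed, the bases from position 2 to 8, which pair with the target mRNA.

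The hairpin of MIR143 gives a pair of mature miRNAs. Their RefSeq sequences (GRCh38.p14, chromosome 5, plus strand, chr5:149428978-149428998 for the 3p arm and chr5:149428944-149428965 for the 5p arm) are shown 5′ to 3′ with the seed in capitals, since these are the letters searched for in the globin transcripts.
hsa-miR-143-3p: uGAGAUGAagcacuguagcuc
hsa-miR-143-5p: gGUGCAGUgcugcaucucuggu

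A site was taken as the 7 letters that pair with the seed (7mer-m8, TCATCTC for the 3p arm and ACTGCAC for the 5p arm) or as those that pair with positions 2 to 7 followed by an A (7mer-A1, CATCTCA and CTGCACA). Both were searched on the transcript strand in GENCODE 29 transcripts, and they overlap where an A follows a 7mer-m8. None of the 8 globin genes held a miR-143-3p site in its RefSeq-linked transcript (0 of 8). For miR-143-5p, 3 of 8 held one (HBE1, HBG1 and HBG2). HBG1 and HBG2 are near-identical copies with the same site, so that these are not separate matches. OR51B5, which shares the row of HBE1, HBG1 and HBG2, did hold 7mer-m8 sites for the 3p arm. In transcript OR51B5-201 the site was coding (chr11:5342881-5342887, minus strand). In other OR51B5 transcripts it lay at chr11:5345785-5345791, outside coding sequence. Among 26260 coding transcripts of 500 to 1000 bases, 9.79% held a site of either form for the 3p arm and 11.4% for the 5p arm. These matches are a description of letters, and binding at them was not measured.

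HBE1, the embryonic beta-like globin, held a 7mer-A1 for the 5p arm in its 3′ UTR at chr11:5268415-5268421 on the minus strand. HBG1 and HBG2, the fetal gamma globins, each held a 7mer-m8 for the 5p arm within the coding sequence. The same stretch of HBE1 and HBD differs from it by 1 base inside the site. The windows below come from the reference genome (GRCh38) at chr11:5249392-5249421 (HBG1), chr11:5254316-5254345 (HBG2), chr11:5269478-5269507 (HBE1) and chr11:5234015-5234044 (HBD), all on the minus strand and all coding, with the site or the bases in its place in capitals.
HBG1: cagctgagtgaACTGCACtgtgacaagctg
HBG2: cagctgagtgaACTGCACtgtgacaagctg
HBE1: aagctgagtgaGCTGCACtgtgacaagctg
HBD: cagctgagtgaGCTGCACtgtgacaagctg
HBE1, 3′ UTR site: acaccctccttCTGCACAtggggactgggc

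The only match to the 3p arm among all transcripts of the 8 genes lay in a transcript of HBG1 that retains an intron (chr11:5248492-5248499, minus strand, in capitals), and it had both forms at once.
HBG1, retained intron: attgtctccttTCATCTCAacagctcctgg

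The row of HBE1, HBG1 and HBG2 was the most abundant globin row in every group. It stood at 236.8 FPKM with IgG and 321.4 FPKM with AGO in control cells, and at 228.9 FPKM with IgG and 523.2 FPKM with AGO in miR-143 cells. Both AGO groups were thus above both IgG groups, and miR143_AGO was highest. By rank among all rows it was 203rd in control_IgG, 99th in control_AGO, 221st in miR143_IgG and 57th in miR143_AGO. GAPDH, a glycolytic enzyme used as a reference level, ranged from 466.8 FPKM in control_AGO to 583.6 FPKM in miR143_IgG. The ratio of the HBE1, HBG1 and HBG2 row to GAPDH was 0.418 with IgG and 0.689 with AGO in control cells, and 0.392 with IgG and 1.00 with AGO in miR-143 cells. Since embryonic epsilon and fetal gamma globin were joined, the planned share of gamma globin could not be separated from HBE1. The joined row as a whole made up 100.0% of beta-like FPKM with IgG and 99.5% with AGO in control cells, and 99.0% with IgG and 99.8% with AGO in miR-143 cells.

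HBB, the adult beta globin, was listed at 0 in all 4 groups. HBD, the delta globin, was listed at 0 with IgG and stood at 1.55 FPKM with AGO in control cells, and at 2.23 FPKM with IgG and 0.940 FPKM with AGO in miR-143 cells. HBD thus did not exceed 2.23 FPKM in any group, and ranked between 7100th and 8974th where it was above 0. HBB and HBD differ at 31 of 441 coding bases (93.0% identical), and no stretch of 100 bases was common to them.

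HBZ, the embryonic alpha-like globin, shared its row with HBM (mu globin) and the pseudogene HBZP1. The row stood at 88.2 FPKM with IgG and 32.0 FPKM with AGO in control cells, and at 100.0 FPKM with IgG and 48.0 FPKM with AGO in miR-143 cells. Both IgG groups were above both AGO groups, the reverse of the order seen for HBE1, HBG1 and HBG2. As a result the HBE1, HBG1 and HBG2 row was 2.68 and 2.29 times the HBZ row in the control and miR-143 IgG groups, and 10.0 and 10.9 times in the AGO groups. This ratio within a group does not depend on how the groups are scaled to each other.

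HBA1 and HBA2 encode the same alpha chain. HBA1 stood at 95.3 FPKM with IgG and 74.2 FPKM with AGO in control cells, and at 77.2 FPKM with IgG and 116 FPKM with AGO in miR-143 cells. HBA2 stood at 15.3 FPKM with IgG and 70.6 FPKM with AGO in control cells, and at 5.27 FPKM with IgG and 26.4 FPKM with AGO in miR-143 cells. HBA1 was the higher of the pair in every group, by 6.22 times with IgG and 1.05 with AGO in control cells, and 14.6 with IgG and 4.401 with AGO in miR-143 cells. HBA1 spanned a narrow range over the groups, whereas HBA2 ranked 523rd in control_AGO and 5058th in miR143_IgG.

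**Figure D1:**
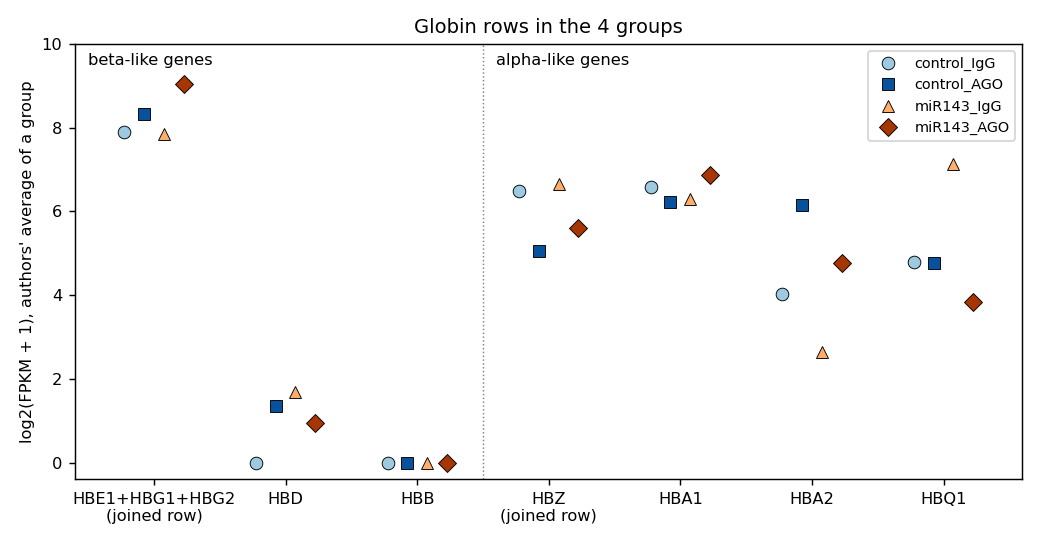
The plot gives log2(FPKM + 1) on the vertical axis for each globin row, with 1 point for the authors' average of each of the 4 groups and no error bar, since no value per sample was analysed. The joined row of HBE1, HBG1 and HBG2 is highest with miR143_AGO at 523.2 FPKM, HBB lies at 0, and the AGO points are below the IgG points for HBZ and above them for HBA2.

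The coding sequences of HBA1 and HBA2 are identical over all 426 bases (0 differences). Their first 60 coding bases, from GRCh38 on the plus strand of chromosome 16 (chr16:176717-176776 for HBA1 and chr16:172913-172972 for HBA2), are printed with the start codon in capitals to show that a read inside the coding sequence cannot be placed on one copy by its letters.
HBA1: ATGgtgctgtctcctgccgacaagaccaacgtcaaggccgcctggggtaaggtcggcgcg
HBA2: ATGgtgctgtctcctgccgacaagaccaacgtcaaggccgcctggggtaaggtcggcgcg

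Of the 478 windows of 100 bases in the HBA1 transcript, 381 (79.7%) occurred unaltered in HBA2, and 381 of 477 (79.9%) the other way round. The division of reads between both rows therefore depended on how the authors' programs handled reads with several positions, and each of the 2 values is uncertain. Their sum is not touched by that division. HBA1 plus HBA2 stood at 110.6 FPKM with IgG and 144.7 FPKM with AGO in control cells, and at 82.5 FPKM with IgG and 142.4 FPKM with AGO in miR-143 cells. HBA2 made up 13.8% of this sum with IgG and 48.7% with AGO in control cells, and 6.39% with IgG and 18.5% with AGO in miR-143 cells. HBG1 and HBG2 differ at 2 of 441 coding bases and shared 265 windows, which were 39.0% of those of HBG1 and 51.5% of those of HBG2, but both genes stood in the same row.

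**Figure D2:**
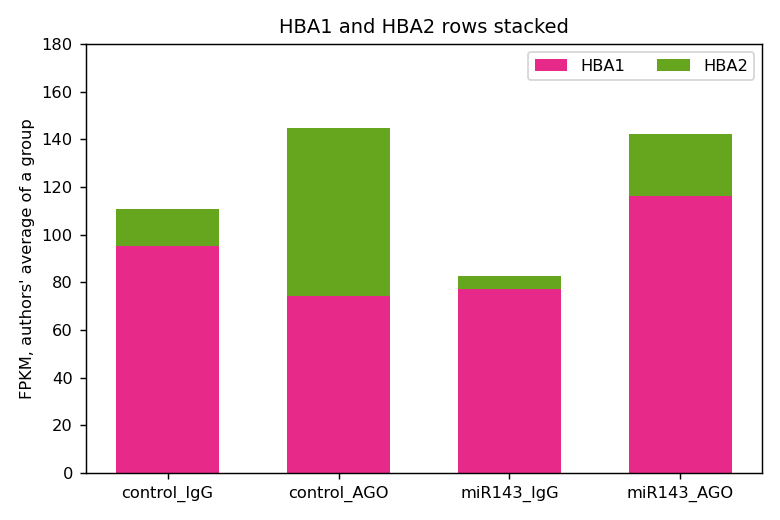
Bars give the FPKM of HBA1 and HBA2 stacked for each group, as the authors' averages on a linear axis from 0 and without error bars. The sum is 144.7 FPKM in control_AGO and 142.4 FPKM in miR143_AGO, while the part listed as HBA2 is 48.7% in the former and 18.5% in the latter.

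On the FPKM scale, which is per length, alpha-like globins (the rows of HBZ, HBA1 and HBA2) summed to between 176.8 FPKM in control_AGO and 198.8 FPKM in control_IgG. Beta-like globins summed to 236.8 FPKM with IgG and 323.0 FPKM with AGO in control cells, and to 231.1 FPKM with IgG and 524.2 FPKM with AGO in miR-143 cells. The ratio of alpha-like to beta-like FPKM was 0.839 in control_IgG, 0.789 in miR143_IgG, 0.547 in control_AGO and 0.363 in miR143_AGO. On these rows beta-like globins exceeded alpha-like globins in each group, and more so in the AGO groups. With HBQ1, the theta globin gene of the alpha cluster, counted as alpha-like, an alternative added after seeing the data, the ratio came to 0.952 in control_IgG, 1.39 in miR143_IgG, 0.628 in control_AGO and 0.389 in miR143_AGO, so that alpha-like exceeded beta-like globins in miR143_IgG. The HBZ row made up 44.4% and 54.8% of alpha-like FPKM in the control and miR-143 IgG groups, and 18.1% and 25.2% in the AGO groups.

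Differences between groups were expressed as log2 of (FPKM + 1) over (FPKM + 1), which understates the difference of low genes, and a row was compared when it reached 1 FPKM in at least 1 of the groups concerned. Of the 6 globin rows 5 were compared each time, and HBB was not. A row was called when it differed at least 2-fold. The study stated a threshold of 10-fold for increased AGO2 binding in miR-143 cells over control cells. Used here in both directions and with 1 added to each FPKM, it was passed by 0 globin rows in each of the 5 comparisons. HBD went past it with smaller pseudocounts where the 0 in control_IgG entered. In RNA precipitated from many cells, a lower value can mean fewer cells with a transcript, less of it per cell or less of it precipitated. These cannot be told apart here.

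In the AGO precipitates, miR-143 cells were compared with control cells. The HBE1, HBG1 and HBG2 row was higher in miR143_AGO, 523.2 against 321.4 FPKM, a ratio of 1.63 and a log2 ratio of 0.70. Of all 9798 rows compared, 27.5% were as high or higher. HBZ (log2 ratio 0.57) and HBA1 (0.64) were also above 0, and HBD (-0.40) was below it. HBA2 was lower, 26.4 against 70.6 FPKM, with a log2 ratio of -1.39, and 8.10% of all rows were as low or lower. It was the 1 globin row past 2-fold lower, where 14.1% of all rows were, and 0 globin rows were past 2-fold higher, where 17.7% of all rows were. At 10-fold 1.03% of all rows passed. HBA1 plus HBA2 did not show the difference seen in HBA2, with 142.4 against 144.7 FPKM and a log2 ratio of -0.02. The median of the 5 globin rows was 0.57, beside 0.17 over all rows.

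The IgG precipitates of the same cells gave the background of this comparison. The HBE1, HBG1 and HBG2 row stood at 228.9 against 236.8 FPKM, a log2 ratio of -0.05 that became 0.18, 0.08 or -0.01 when the groups were scaled to the same median, upper quartile or coding sum. HBZ (0.18) and HBA1 (-0.30) were also within 2-fold. HBA2 was lower again, 5.27 against 15.3 FPKM, with a log2 ratio of -1.38, close to that in the AGO precipitates. HBD was listed at 0 in control_IgG and stood at 2.23 FPKM in miR143_IgG, so that no fold was given, although its log2 ratio on the (FPKM + 1) scale was 1.69. Thus 1 globin row was past 2-fold higher and 1 past 2-fold lower, against 36.2% and 26.8% of 10172 rows, with 8.87% past 10-fold. The globin median was -0.05, beside 0.17 over all rows.

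AGO was compared with IgG first in the control cells. HBA2 was higher in control_AGO, 70.6 against 15.3 FPKM, a ratio of 4.61 and a log2 ratio of 2.13, with 13.3% of all rows as high or higher. HBD had a log2 ratio of 1.35 from 0 FPKM in control_IgG. The HBE1, HBG1 and HBG2 row had a ratio of 1.36 and a log2 ratio of 0.44, which came to 1.08, 0.97 and 0.84 with the same median, coding sum and upper quartile. HBZ was lower in control_AGO, 32.0 against 88.2 FPKM, which is 2.75 times lower and a log2 ratio of -1.43. HBA1 was at -0.36, a sign that turned to 0.28, 0.17 and 0.04 with the same median, coding sum and upper quartile. There were 2 globin rows past 2-fold higher and 1 past 2-fold lower, beside 34.5% and 36.2% of 9919 rows, and 9.36% were past 10-fold. With the same median 3 globin rows were higher and 0 lower, and with the same coding sum 2 and 0. The globin median was 0.44, beside -0.19 over all rows. The median of all rows itself moved to 0.47, 0.21 and 0.36 with the same median, upper quartile and coding sum, and the share of called rows that were higher in AGO moved from 48.8% to 61.1%, 56.0% and 59.02%.

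The same comparison was made in the miR-143 cells, which share no samples with the control cells. HBA2 was 4.999 times higher in miR143_AGO (26.4 against 5.27 FPKM, log2 ratio 2.12), and 7.83% of all rows were as high or higher. The HBE1, HBG1 and HBG2 row was 2.29 times higher (523.2 against 228.9 FPKM, log2 ratio 1.19), with 22.2% of all rows as high or higher. HBA1 was at 0.58, which came to 0.87, 1.02 and 1.08 with the same median, upper quartile and coding sum, and HBD at -0.73. HBZ was again lower, 48.0 against 100.0 FPKM, which is 2.08 times lower and a log2 ratio of -1.04. With 2 globin rows past 2-fold higher and 1 past 2-fold lower, the counts stood beside 26.6% and 33.5% of 10643 rows, and 5.27% of rows passed 10-fold. With the same upper quartile or coding sum 3 globin rows were higher and 0 lower, and with the same median 2 and 0. The globin median was 0.58, beside -0.22 over all rows. With the same median, upper quartile and coding sum the median of all rows moved to 0.06, 0.21 and 0.27, and the share of called rows that were higher in AGO from 44.2% to 52.0%, 56.1% and 57.7%. HBA1 plus HBA2 was 1.31 times higher in AGO in the control cells and 1.73 times in the miR-143 cells.

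The share of coding RNA differed between IgG and AGO groups as given above, and so did the summed FPKM. This sum was 2831021 and 2595868 in the control and miR-143 IgG groups, and 368552.4 and 411417 in the AGO groups. Coding rows alone summed to more with IgG, 223537.4 and 217520.5, than with AGO, 154894.5 and 153092.1. The part of these differences in the AGO over IgG ratios was not tested. HBZ stayed below 0 in both cell populations under each scaling, but its log2 ratio came to between -0.54 and -1.04 and passed 2-fold only in control cells with the same upper quartile. HBA2 remained above 2-fold in both under each scaling. The depth behind HBA2 was uneven: its FPKM stood 12.0 times above the lowest values resolved in control_IgG and 684 times in control_AGO, and 33.9 times in miR143_IgG and 278 times in miR143_AGO.

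The AGO over IgG ratio of miR-143 cells was divided by that of control cells to give the IgG-corrected effect of miR-143. It was 0.75 on the log2 scale for the HBE1, HBG1 and HBG2 row, 0.39 for HBZ, 0.94 for HBA1 and -0.01 for HBA2. HBA1 and HBA2 summed gave 0.40. With the same median these came to 0.40 for the HBE1, HBG1 and HBG2 row, 0.05 for HBZ, 0.59 for HBA1 and -0.36 for HBA2, and HBA2 turned to 0.02 with the same upper quartile and to 0.12 with a pseudocount of 0.01. HBD, at -2.09, was the 1 globin row past 2-fold lower, and this value rests on the 0 in control_IgG. Of 11914 rows, 29% were past 2-fold higher and 33.5% past 2-fold lower, and 10.3% were past 10-fold. The globin median was 0.39, beside -0.09 over all rows.

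**Figure D3:**
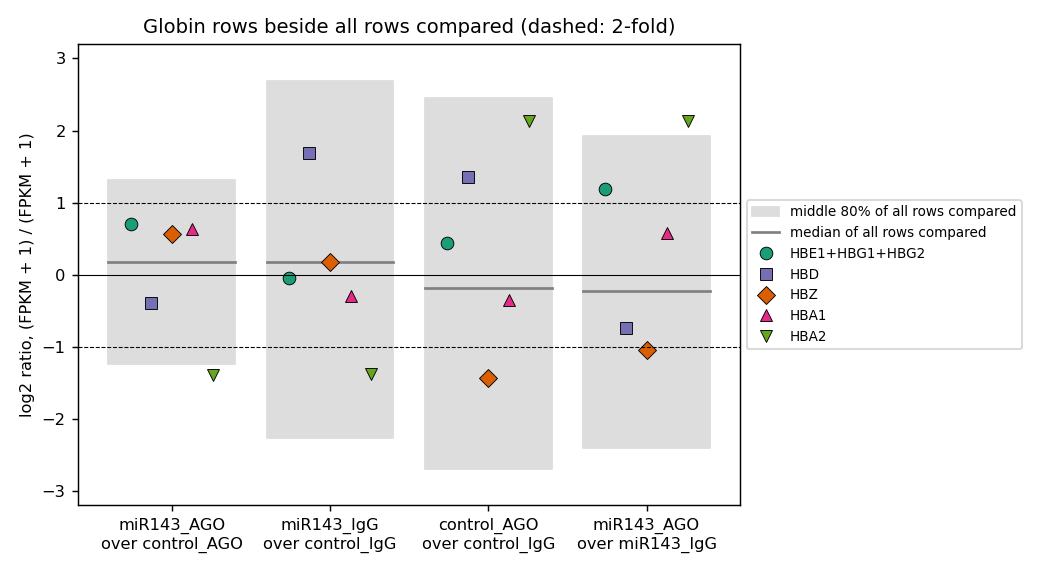
For 4 comparisons, points give the log2 ratio of (FPKM + 1) of each globin row compared, the grey boxes span the middle 80% of all rows compared, and the dashed lines mark 2-fold. HBA2 lies outside the box for miR143_AGO over control_AGO (-1.39) and for miR143_AGO over miR143_IgG (2.12), and the other globin rows lie inside in each comparison.

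Other globin genes were looked up by a list, and 7 of 8 were found (HBM, HBQ1, HBBP1, HBZP1, MB, CYGB and NGB). HBBP1, a beta-globin pseudogene, MB (myoglobin) and NGB (neuroglobin) were listed at 0 in each group. CYGB (cytoglobin), joined with RP11-666A8.8, was above 0 only in control_AGO, at 2.18 FPKM. HBQ1, the theta globin gene downstream of HBA1, stood at 26.6 FPKM with IgG and 26.2 FPKM with AGO in control cells, and at 139 FPKM with IgG and 13.3 FPKM with AGO in miR-143 cells. It was highest by far in miR143_IgG. The HBZ row was also highest in miR143_IgG, by less, and next in control_IgG, but its AGO groups stood in the opposite order. HBA1 and HBA2 were each highest in an AGO group. The log2 ratio of AGO over IgG for HBQ1 was -3.29 in miR-143 cells and, on the values as deposited, -0.02 in control cells. In miR-143 cells 3.81% of all rows were as low or lower.

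Partners of globin mRNA and protein were few. AHSP, the chaperone of free alpha chains, was listed at 0 in all groups. PCBP1, an RNA-binding protein that stabilizes alpha-globin mRNA, stood at 19.0 and 16.4 FPKM in the control and miR-143 IgG groups and at 3.99 and 5.08 FPKM in the AGO groups. PCBP2, its relative, in a row joined with PRR13 and others, ranged from 61.5 FPKM in miR143_AGO to 223 FPKM in miR143_IgG. PABPC1, the poly(A)-binding protein, stood at 244 and 239 FPKM in the IgG groups and at 145 and 76.9 FPKM in the AGO groups. All 3 rows compared were past 2-fold lower in miR143_AGO than in miR143_IgG, and 1 of 3 (PCBP1) in control_AGO against control_IgG, beside 33.5% and 36.2% of all rows. On the values as deposited they lay on the side of HBZ, and opposite to HBA2 and to the HBE1, HBG1 and HBG2 row. In control cells the log2 ratio was only -0.26 for PCBP2 and -0.75 for PABPC1. These rows were not scaled as the globin rows were, so that their side in control cells is uncertain.

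Transcription factors and other regulators of the globin loci formed a list of 24 genes. In the AGO precipitates, 1 of 22 compared was past 2-fold higher in miR-143 cells and 1 past 2-fold lower, beside 17.7% and 14.1% of all rows. The higher was NFE2, a subunit of the factor that binds the globin enhancers, at 20.5 against 9.004 FPKM (log2 ratio 1.10). The lower was NR2C1, a nuclear receptor that represses HBE1 and the gamma globins, at 2.63 against 7.09 FPKM (-1.16). In the IgG precipitates 5 of 21 were higher and 4 lower, beside 36.2% and 26.8% of all rows. For the IgG-corrected effect 4 of 22 were higher and 8 lower, beside 29% and 33.5% of all rows. The list's medians were -0.26, 0.03 and -0.30, beside 0.17, 0.17 and -0.09 over all rows.

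KLF1, the erythroid factor that activates HBB, stood at 41.9 FPKM with IgG and 281 FPKM with AGO in control cells, and at 42.8 FPKM with IgG and 289 FPKM with AGO in miR-143 cells. The AGO groups were far above the IgG groups, with log2 ratios of 2.72 and 2.73, and miR-143 cells and control cells were close. GATA1, the erythroid master factor, ranged only from 52.0 FPKM in miR143_IgG to 73.2 FPKM in control_AGO. LMO2, a bridging subunit of the GATA1 and TAL1 complex, stood at 7.91 and 20.4 FPKM in the control and miR-143 IgG groups and at 96.4 and 49.8 FPKM in the AGO groups. ZBTB7A, a repressor of gamma globin, stood at 3.34 and 0.220 FPKM in the IgG groups and at 16.4 and 13.3 FPKM in the AGO groups. BCL11A, the main repressor of gamma globin in adult cells, was listed at 0 in all groups, and SOX6, which acts with it, did not exceed 0.0384 FPKM. Across the list, 10 of 22 regulators were past 2-fold higher and 5 past 2-fold lower in control_AGO against control_IgG, beside 34.5% and 36.2% of all rows. In the miR-143 cells the counts were 9 and 5 of 22, beside 26.6% and 33.5% of all rows. The list's medians were 0.59 and 0.14, beside -0.19 and -0.22 over all rows.

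**Figure D4:**
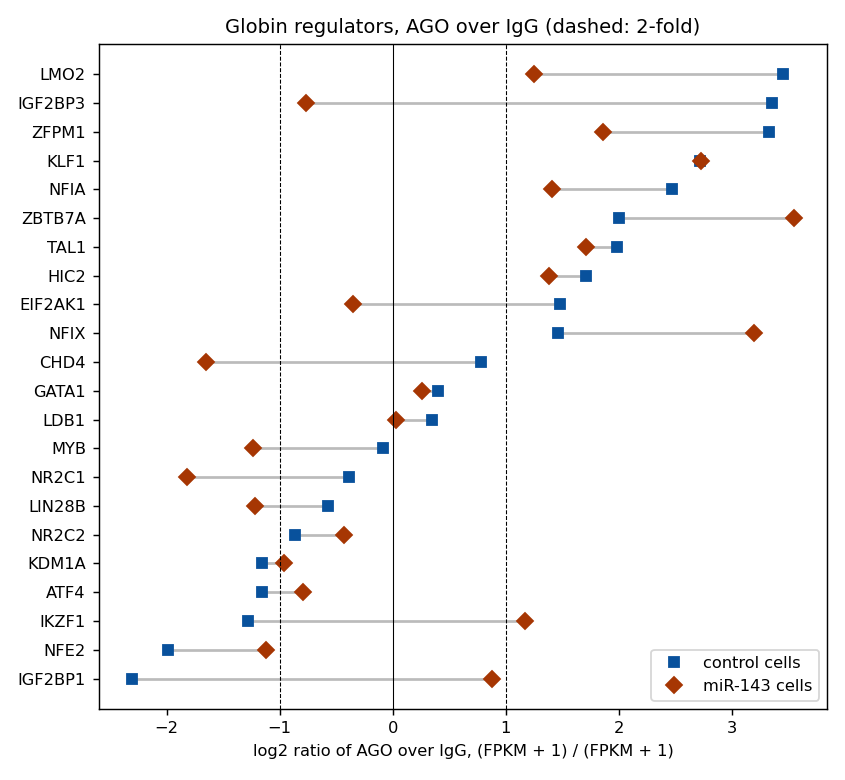
Points give the log2 ratio of (FPKM + 1) in AGO over IgG for each of the 22 regulators compared, with squares for control cells and diamonds for miR-143 cells, with a line joining both and dashed lines at 2-fold. KLF1 lies at 2.72 and 2.73, while NFE2 is past 2-fold lower in both.

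The labelled cell type was checked with marker lists. Erythroid markers (9 rows) summed to 291 FPKM with IgG and 784 FPKM with AGO in control cells, and to 374 FPKM with IgG and 968 FPKM with AGO in miR-143 cells, and 6 of 9 reached 1 FPKM in at least 1 group. AHSP was at 0 throughout, and SLC4A1 (band 3) and HEMGN stayed under 1 FPKM. In the AGO groups the sum was carried by GYPB and KLF1. In both IgG groups GYPB was highest, and GATA1 and TFRC each exceeded KLF1. The median log2 ratio of AGO over IgG of the 6 rows compared was 0.02 for the control and 0.03 for the miR-143 cells. TFRC, the transferrin receptor, stood at 45.8 FPKM with IgG and 32.9 FPKM with AGO in control cells, and at 70.05 FPKM with IgG and 27.5 FPKM with AGO in miR-143 cells. On the values as deposited, ALAS2, the erythroid enzyme that starts heme synthesis, was also lower with AGO. It stood at 8.74 against 11.4 FPKM in control cells and 15.4 against 17.7 FPKM in miR-143 cells. So did EPOR, the erythropoietin receptor, in a row joined with RGL3, stand lower, at 1.02 against 17.5 FPKM and at 1.32 against 4.82 FPKM. The log2 ratios of ALAS2 were only -0.35 and -0.19, and that of TFRC in control cells was -0.47. Markers were not scaled as the globin rows were, and ratios of this size can change sign with the scaling, as HBA1 did in control cells. GYPB (glycophorin B) stood at 120 FPKM with IgG and 387 FPKM with AGO in control cells, and at 186 FPKM with IgG and 572 FPKM with AGO in miR-143 cells. Both AGO groups were above both IgG groups and miR143_AGO was highest, as in the HBE1, HBG1 and HBG2 row, while the order of the IgG groups was the opposite.

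Granulocytic and monocytic markers summed to between 8.34 FPKM in miR143_IgG and 29.1 FPKM in miR143_AGO, with 5 of 11 rows at 0 in all groups (MPO, ELANE, CD14, S100A8 and S100A9) and 7 of 11 under 1 FPKM. PRTN3 (proteinase 3) was at 7.86 FPKM in control_AGO, 13.9 FPKM in miR143_AGO and 0 in both IgG groups. CEBPA, the gene of C/EBPα, did not exceed 0.453 FPKM. Of the megakaryocytic markers 4 of 5 were at 0 in all groups, and ITGA2B stood at 8.77 FPKM in control_AGO and 10.5 FPKM in miR143_AGO. Lymphoid markers summed to at most 2.46 FPKM, with 5 of 6 under 1 FPKM throughout. The part of other cell types in the globin values was not tested.

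The rows most like the HBE1, HBG1 and HBG2 row over the 4 groups were sought among 672 rows of a single name with a mean of at least 50 FPKM. Likeness was the Euclidean distance between centred log2(FPKM + 1) values. The 5 nearest were RP11-161H23.5 (distance 0.25), GDI2 (0.27), the histone gene HIST1H2BL (0.31), SHMT2 (0.33) and RPS6KB2 (0.33). HIST1H2BL stood at 201 FPKM with IgG and 369 FPKM with AGO in control cells, and at 224 FPKM with IgG and 541 FPKM with AGO in miR-143 cells. With 4 points per row, such distances describe these averages only.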

How the data were processed

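The authors deposited 4 tables, 1 per group of 3 samples, and each row holds the average FPKM of that group. According to the methods of the study and the submitters' processing notes, reads were processed with TopHat and Cufflinks on hg38, whose versions and annotation release are not given in the sources used here. The labels describe rRNA removal and random priming, the methods a TruSeq kit. Cufflinks joins overlapping genes into 1 row, and FPKM divides by the library total, so that abundant RNAs lower all other values.

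Ratios were log2 of (FPKM + 1) over (FPKM + 1) on values as deposited, for rows of at least 1 FPKM in 1 of the groups compared, and a call was a difference of 2-fold, beside the 10-fold of the study. With 1 average per group no test was run. The design had foreseen limma if values per sample were found. The genes, lists, markers and tests were chosen with earlier results of these data known. All 8 globin genes were named, other listed genes where they passed 2-fold or as examples, and the 5 rows of most like pattern. HBAP1 was not found. Of the erythroid markers, 1 was left out of all values and is not reported here. Alternatives were pseudocounts, scalings, filters, summed copies and joined rows left out. The check of low values against transcript length (the 10th lowest product of FPKM and length over 15722 rows) and the look-up of MIR143 as a check of the vector were chosen after seeing the data. Transcripts came from GENCODE release 29 (GRCh38, the same assembly as hg38) and miRNAs from RefSeq, where both MIR143 arms matched. Scripts used Python 3.11.15, NumPy 2.4.6, pandas 2.3.3 and matplotlib 3.10.9, and the ratio step was tested on simulated data.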

Additional observations from a re-analysis of the deposited data

How the results depend on the processing

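No paired analysis was possible because each table holds a single average per group with no replicate numbers, and leaving out single samples was not run for the same reason. Of the counts of globin rows past 2-fold (1 for miR143_AGO over control_AGO, 2 for miR143_IgG over control_IgG, 3 for each AGO over IgG comparison and 1 for the IgG-corrected effect), all became 0 at 10-fold. With a mean of at least 5 FPKM, which removes HBD, miR143_IgG over control_IgG came to 1 and the IgG-corrected effect to 0. With HBA1 and HBA2 summed, miR143_AGO over control_AGO came to 0, miR143_IgG over control_IgG to 1 and each AGO over IgG comparison to 2. Control_AGO over control_IgG also came to 2 at a mean of 5 FPKM and with the same coding sum, and miR143_AGO over miR143_IgG to 4 with smaller pseudocounts and 2 with the same median. With joined rows left out, alpha-like over beta-like FPKM came to 93.3 in control_AGO, 37.0 in miR143_IgG and 151.5 in miR143_AGO, since only HBD then remains among beta-like rows above 0, and gave no value in control_IgG. With HBQ1 counted as alpha-like it came to 1.39 in miR143_IgG. The share of gamma globin had no value without its joined row. The 25 single ratios were each recomputed under the alternatives that applied. Of the values this gave, 178 moved by less than 1.5-fold and 12 by more. The 178 include values that could not move. The filters on low values leave a ratio as it is, and summing HBA1 and HBA2 leaves the other rows as they are. Of the 12, 6 were HBD with smaller pseudocounts. There its ratio over the 0 in control_IgG came to between 4.05 and 7.81 on the log2 scale, and its IgG-corrected effect to -5.21 and -8.52. No ratio past 2-fold changed direction. Depth was read only relatively, and a 0 in control_IgG was least informative.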

Other observations

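The coding genes within 100 kb of the globin genes, outside their rows, differed between both clusters. Around the beta cluster all 6 were olfactory receptor genes, and 5 of 6 were listed at 0 in all groups. OR51B4 was the exception, at 10.7 FPKM in miR143_IgG and 1.02 FPKM in miR143_AGO. Around the alpha cluster 8 of 9 were above 0 in every group, and RGS11 was listed at 0. Those above 0 include HBQ1, itself a globin gene, and ARHGDIG, whose value is that of a row joined with AC004754.3 and ITFG3. NPRL3, whose introns hold the enhancers of the alpha-globin genes, ranged from 9.80 FPKM in control_AGO to 15.8 FPKM in miR143_AGO. SNRNP25, a subunit of the minor spliceosome, stood at 113 FPKM with IgG and 4.76 FPKM with AGO in control cells, and at 48.2 FPKM with IgG and 10.2 FPKM with AGO in miR-143 cells. MPG, a DNA glycosylase, was highest in control_IgG at 103 FPKM and lowest in miR143_AGO at 28.3 FPKM. These genes were named after their values were seen.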
